A study of Mus musculus with 35 samples.

Results

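The genes examined were the semaphorins, their neuropilin and plexin receptors, and the Eph receptors with their ephrin ligands. They were taken by name: every peak whose Gene Name began with Sema, Plxn, Epha, Ephb, Efna, Efnb or Nrp followed by a digit or letter was kept, Nrpr excepted. This gave 54 genes of the 23852 gene names in the peak lists, 53 of them protein-coding and 1 the long noncoding RNA Plxna4os1, and it took in all 54 RefSeq genes that match the rule. By role they comprised 7 secreted semaphorins, 13 membrane-bound semaphorins, 2 neuropilins, 10 plexin loci, 9 EphA receptors, 5 EphB receptors, 5 ephrin-A ligands and 3 ephrin-B ligands. The rule itself uses names alone.

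The data were chromatin immunoprecipitation sequencing (ChIP-seq) of mouse stromal adherent pre-B cell progenitors, B-lineage precursors that grow attached to a stromal layer, at passages 3 to 8. The WT cultures came from wild type mice. The IKDN cultures came from IKDN CD2 Cre mice, which carry a dominant-negative form of the lymphoid transcription factor Ikaros and a Cre recombinase under CD2 regulatory sequences, active in lymphoid cells. The question was how enhancers, promoters and factor binding differed between both kinds of cells. There were 35 libraries, and the 33 peak lists used here (16 WT, 17 IKDN) held 1 library per genotype and target, so that no value has a replicate error, no difference can be set against the spread between cultures, and no p-value is given. Whether several animals or clones went into a culture, and whether the WT mice carried Cre, is not given in the sources used here. As the cultures were profiled in bulk, fewer marked cells and a weaker mark per cell cannot be told apart.

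Semaphorins are ligands that steer the movement and adhesion of cells through plexins, whose cytoplasmic part acts on small GTPases. Secreted class 3 semaphorins mostly need a neuropilin as the ligand-binding subunit, and neuropilins also bind vascular endothelial growth factor. Ephrins are held on the surface of one cell and bind Eph receptor tyrosine kinases on its neighbour, and both families set boundaries between tissue layers, epithelia included. In the immune system Sema4d, Sema4a and Sema7a act on lymphocytes and myeloid cells, and Plxnd1 and Plxnc1 are plexins of lymphoid and myeloid cells.

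The measure was covered length, the summed length in kb of all peaks that the authors' lists give to a gene as the nearest start site. A gene was called higher in IKDN when its covered length there exceeded that in WT by at least 1000 bp and was at least 1.5 times as long; the opposite difference was called lower. Such a call is a threshold on single libraries and no test. For each mark the share of all gene names with the same call is given as the background. The lists held 2783 (IKDN Aiolos) to 86562 (IKDN PAX5) peaks. They do not give the sequencing depth; if their scores are tags scaled to 10 M (M, mega), an inference from the score steps, the libraries held 10.7 M (IKDN H3K4me3) to 37.5 M (IKDN H3K27me3) tags.

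The promoters of 4 members whose H3K27ac was called higher in IKDN are shown first, since at each of them a factor peak found in IKDN overlaps the bases just before the start. They were chosen after their values were seen, and Efnb2, also called higher and with an IKDN PAX5 peak there, is not shown. Sequences are from RefSeq (GRCm38.p6, the build mm10 of the files), 5′ to 3′, up to 250 bases that end before the outermost annotated start, and 47 of the 54 members had an entry. They lie on the plus strand at chr1:62703067-62703316 for Nrp2, chr1:194619579-194619790 for Plxna2, chr15:32244563-32244812 for Sema5a and chrX:99135811-99136060 for Efnb1. Capitals mark the bases under the named IKDN peak: TEAD1 at Nrp2, LHX2 at Plxna2, EBF1 at Sema5a and ETS1 at Efnb1. The peak scores were above the median of their list at Nrp2 (13.7, median 9.12) and Plxna2 (15.8, median 8.64). They were below it at Sema5a (6.26, median 12.1) and Efnb1 (3.83, median 7.95).
Nrp2: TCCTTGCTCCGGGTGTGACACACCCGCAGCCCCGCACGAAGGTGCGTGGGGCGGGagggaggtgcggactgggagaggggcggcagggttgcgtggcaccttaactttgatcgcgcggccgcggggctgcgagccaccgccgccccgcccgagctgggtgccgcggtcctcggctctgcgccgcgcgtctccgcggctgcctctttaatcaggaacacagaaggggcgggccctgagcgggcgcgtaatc
Plxna2: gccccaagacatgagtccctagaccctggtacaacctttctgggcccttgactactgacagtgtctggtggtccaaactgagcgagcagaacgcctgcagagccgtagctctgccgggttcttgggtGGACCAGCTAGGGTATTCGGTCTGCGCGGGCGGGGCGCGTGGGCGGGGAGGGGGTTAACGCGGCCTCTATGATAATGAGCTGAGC
Sema5a: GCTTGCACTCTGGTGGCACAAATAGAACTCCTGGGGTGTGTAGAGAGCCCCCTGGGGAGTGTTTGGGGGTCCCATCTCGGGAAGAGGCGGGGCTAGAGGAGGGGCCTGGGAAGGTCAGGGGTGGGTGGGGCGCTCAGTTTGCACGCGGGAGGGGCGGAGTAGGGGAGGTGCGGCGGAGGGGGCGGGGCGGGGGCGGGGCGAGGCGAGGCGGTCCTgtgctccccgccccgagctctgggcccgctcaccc
Efnb1: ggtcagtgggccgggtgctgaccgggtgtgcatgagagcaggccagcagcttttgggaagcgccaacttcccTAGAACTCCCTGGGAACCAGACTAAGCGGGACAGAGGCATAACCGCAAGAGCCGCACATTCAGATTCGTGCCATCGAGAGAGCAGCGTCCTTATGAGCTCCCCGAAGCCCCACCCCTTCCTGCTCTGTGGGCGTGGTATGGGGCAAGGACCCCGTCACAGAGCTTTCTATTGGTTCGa
Each was searched on both strands for short words of 5 factors: GGAATG (TEAD1, in 12.6% of all 32851 promoter windows of 250 bases), TAATTA (LHX2, 4.84%), TGGGAA (Ikaros, 21.6%), CAGCTG (E2A, 13%) and CCCNNGGGA (EBF1, 5.6%). TGGGAA and GGAATG can overlap. Sema5a held CCCNNGGGA at base 50, counted from the 5′ end, which lies under the IKDN EBF1 peak and outside the WT EBF1 peak that starts at base 90, and it held TGGGAA at base 107. Efnb1 held TGGGAA at bases 54 and 83. None of the 5 words was found in the Nrp2 and Plxna2 stretches. In IKDN the Plxna2 stretch also had an E2A and an IRF4 peak at its 3′ end, and the Nrp2 stretch an ETS1 peak. PAX5 peaks were listed as well: in WT over all 212 bases at Plxna2 and from base 106 at Efnb1, and in both genotypes at Sema5a.

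H3K27ac, the acetylation of histone H3 found at active promoters and enhancers, was called higher in IKDN at 14 of the 54 members and lower at 7. Of all gene names 14.1% were called higher and 10.8% lower, and among genes with a peak in either list 21.9% and 16.8%, against 14 and 7 of the 39 members with a peak. The summed length of the members was 343 kb in WT cells and 392 kb in IKDN cells, which gives a ratio of 1.14 where all genes together gave 1.05. Of the 14 higher members 9 were receptors (6 of 10 plexin loci, both neuropilins and Epha5, the 1 of 14 Eph receptors) and 5 were ligands (Sema3f, Sema5a, Efna5, Efnb1 and Efnb2). Of the 13 membrane-bound semaphorins 1 was higher and 3 lower, and no EphB receptor was called in either direction. These counts are by gene name. Over the gene body with 10 kb flanks, Efnb1, Plxna4, Plxnb2 and Sema3f were not called. Efna1 (9.5 and 14.3 kb), Epha1 (2.1 and 4.38 kb), Sema4g (2.19 and 3.31 kb) and Efnb3 were called higher there instead. With a handful of genes per group, no group was shown to differ from another.

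**Figure D1:**
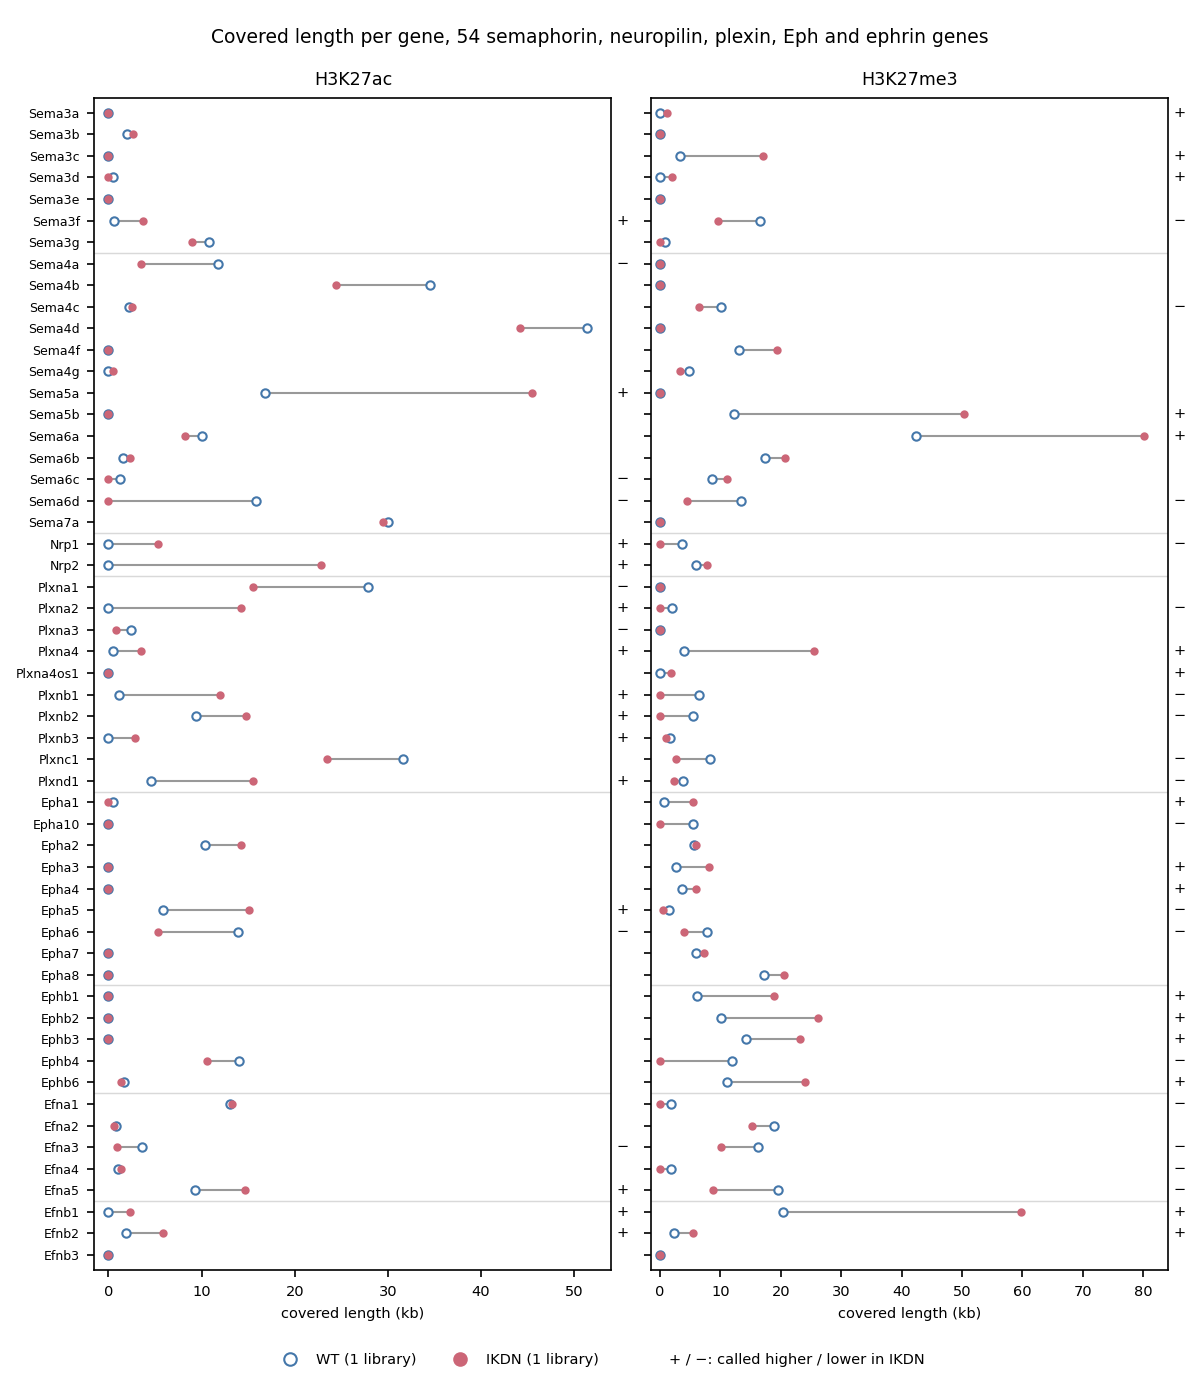
Covered length in kb (x axes) of H3K27ac (left) and H3K27me3 (right) for each of the 54 genes (y axis), grouped by role with grey lines between groups; open circles are the WT library, filled circles the IKDN library, and plus or minus signs mark genes called higher or lower in IKDN. Nrp2, Plxna2 and Sema5a have the longest H3K27ac bars towards IKDN and Sema6d the longest towards WT.

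The neuropilins had no H3K27ac peak under their own name in WT. Nrp2, the neuropilin that pairs with Sema3f, had 0 kb in WT cells and 22.9 kb in IKDN cells, and its H3K4me1, the methylation typical of enhancers, was 0 kb in WT cells and 18.7 kb in IKDN cells. Its H3K4me2 went from 1.89 kb in WT cells to 15.4 kb in IKDN cells and its H3K4me3, the promoter mark, from 1.79 kb to 4.11 kb. H3K36me3, laid down along transcribed gene bodies, was 0 kb in WT cells and 10.1 kb in IKDN cells. All of these, and RNAPII (polymerase phosphorylated on serine 5, 0 and 4.3 kb) and the Mediator subunit MED1 (0 and 3.98 kb), were called higher. H3K27me3, the Polycomb mark of repressed genes, was not called at Nrp2: it covered 6 kb in WT cells and 7.77 kb in IKDN cells, so its promoter carried this mark beside H3K27ac in the IKDN lists.

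Nrp1, the neuropilin that pairs with Sema3a, had 0 kb of H3K27ac in WT and 5.34 kb in IKDN by gene name. Its H3K27me3 was 3.69 kb in WT cells and 0 kb in IKDN cells. The name hides most of this locus, because 158 of the 166 peaks inside the Nrp1 gene body are listed under Mir1903, a microRNA annotated close to the Nrp1 start. Counted across the gene with 10 kb flanks, H3K27ac was 2.58 kb in WT cells and 23.6 kb in IKDN cells, so acetylation was present at Nrp1 in WT too. In the same window H3K4me1 covered 18.5 kb in WT cells and 56 kb in IKDN cells, H3K36me3 was 0 and 42.3 kb, and RNAPII was 0 and 6.38 kb. Over all members 561 of the 2906 peaks inside gene bodies, or 19.3%, carried another gene's name, 38 of 98 at Nrp2. Over the 8 targets 163 calls were made by name. Of these 133 were the same over the gene body with 10 kb flanks, 5 were opposite and 25 were not called, while 33 further calls appeared over the gene body alone. Values below are by name unless the gene body is mentioned.

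Plxna2, a receptor for class 3 and class 6 semaphorins, changed on 7 of the 8 profiled marks and cofactors, by the calls. It had no H3K27ac, H3K4me1, H3K4me2, H3K36me3 or MED1 peak in WT. In IKDN these covered 14.2, 19.4, 9.63, 27.1 and 3.17 kb in that order. Its H3K4me3 was already present in WT (1.48 kb, 2.62 kb in IKDN), and its H3K27me3 of 1.99 kb in WT was at 0 kb in IKDN. RNAPII did not follow: 2.51 kb in WT cells and 1.87 kb in IKDN cells, not called.

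Plxnb1, the receptor of Sema4d, had 1.09 kb of H3K27ac in WT and 12 kb in IKDN. Its RNAPII went from 0 to 8.33 kb, its H3K36me3 from 1.63 to 22.4 kb and its MED1 from 0 to 2.2 kb, while H3K27me3 went from 6.47 to 0 kb. All 5 of these were called, H3K27me3 lower and the others higher, while H3K4me3 was 1.99 and 2 kb. Plxnb2, a further class B plexin that binds Sema4c, gave 9.39 and 14.8 kb of H3K27ac, 0 and 13 kb of RNAPII and 5.45 and 0 kb of H3K27me3. The H3K27ac of Plxnb2 was not called over the gene body, at 11.2 and 16.6 kb. Plxnb3 gave 0 and 2.86 kb of H3K27ac, with RNAPII called lower at 3.13 and 0.5 kb. Over its gene body H3K27ac was 3.28 and 8.31 kb, again higher, and RNAPII 11.7 and 10.1 kb, not called.

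Plxnd1, the receptor of Sema3e, had 4.56 kb of H3K27ac in WT and 15.5 kb in IKDN and 10.8 and 26.8 kb of H3K36me3. Its RNAPII depended on how peaks were given to the gene: by name it was called lower, at 16.8 and 4.54 kb, and over the gene body higher, at 0.5 and 4.96 kb. Plxna4 had 0.5 and 3.55 kb of H3K27ac by name, none of it in the gene body, where RNAPII was also at 0 kb in both genotypes, and its H3K27me3 was called higher at 3.98 and 25.5 kb.

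The other plexins went the other way or were not called for H3K27ac. Plxna1 had 27.8 kb in WT cells and 15.5 kb in IKDN cells, and Plxna3 2.4 and 0.789 kb, both called lower. Over the gene body of Plxna3 H3K27ac was 3.79 and 2.02 kb, again lower, and H3K27me3 0 and 1.13 kb, called higher. RNAPII at Plxna1 was also lower, at 22.4 and 14 kb, whereas its H3K4me1 was called higher by name (17.4 and 27.7 kb) and lower over the gene body (17.9 and 9.31 kb). Plxnc1, the receptor of Sema7a, had the most H3K27ac of the plexins by name in both genotypes, 31.6 and 23.5 kb, and was not called. Over the gene body it was not called either, at 12 and 15.8 kb. There Plxna1 had more in WT (23.4 kb), and Plxnd1 and Plxnb2 had more in IKDN (17.7 and 16.6 kb). MED1 at Plxnc1 was 0.5 kb in WT cells and 13 kb in IKDN cells and its H3K36me3 1 and 13.3 kb. Its RNAPII was called higher by name (3.67 and 15.1 kb) and lower over the gene body (10.4 and 6.01 kb). The noncoding Plxna4os1 had no H3K27ac peak in either genotype.

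Among the ligands Sema5a, a membrane-bound semaphorin with thrombospondin repeats that binds plexins, had the largest gain of H3K27ac of all members, from 16.9 kb in WT cells to 45.5 kb in IKDN cells. Its H3K4me1 went from 32.6 to 61 kb and its MED1 from 1.16 to 14.3 kb. H3K36me3 covered 0.5 kb in WT cells and 54.1 kb in IKDN cells by name, and 0.5 and 98.4 kb over the gene body, the largest gain of that mark among the members. RNAPII was not called, at 11 and 15.9 kb, and no H3K27me3 peak was listed in either genotype. Unlike Nrp2 and Plxna2, then, Sema5a already carried H3K27ac in WT.

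Sema6d, a ligand of Plxna1, was the clearest loss. Its H3K27ac was 15.9 kb in WT cells and 0 kb in IKDN cells, H3K4me1 26 and 0.5 kb, H3K4me2 16.2 and 1.6 kb, H3K4me3 4.07 and 0 kb, RNAPII 9 and 0 kb, and MED1 3.14 and 0 kb. All 6 were called lower. H3K27me3 was lower as well, at 13.4 kb in WT cells and 4.53 kb in IKDN cells, and none of the 8 targets was called higher there. Sema4a, a class 4 semaphorin of lymphoid and myeloid cells, had 11.7 and 3.46 kb of H3K27ac, 14.3 and 6.04 kb of H3K4me1, 2.77 and 0.5 kb of RNAPII and 2.18 and 0 kb of MED1, and it had no H3K27me3 peak in either genotype. Over the gene body of Sema4a H3K36me3 was 15.2 and 0 kb, a lower call that the naming hides. Sema6c, the third semaphorin called lower, had 1.25 and 0 kb of H3K27ac and 11.3 and 6.2 kb of RNAPII.

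The semaphorins with the most H3K27ac in WT were not called. Sema4d, the lymphocyte semaphorin CD100, had 51.4 kb in WT cells and 44.2 kb in IKDN cells, and Sema4b had 34.5 and 24.4 kb. Sema7a, a membrane-anchored semaphorin that binds integrins and Plxnc1, had 30 and 29.4 kb of H3K27ac, yet its RNAPII was 21.8 kb in WT cells and 46.6 kb in IKDN cells, the largest RNAPII gain of the members, and its MED1 was 1.98 and 13.1 kb. Of the secreted class, Sema3f was called higher by name at 0.632 and 3.69 kb of H3K27ac, but not over the gene body at 0.632 and 1.14 kb.

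In the Eph and ephrin genes H3K27ac was called at few members. Efna5, an ephrin-A ligand, had 9.29 kb in WT cells and 14.7 kb in IKDN cells (0.922 and 5.42 kb over the gene body), and its main receptor partner Epha5 had 5.91 and 15 kb. Efnb2, a ligand of Ephb4, had 1.89 and 5.85 kb, and Efnb1 0 and 2.31 kb, which was not called over the gene body (0 and 0.76 kb). The third ephrin-B ligand, Efnb3, had no H3K27ac under its own name and 0 and 2.09 kb over its gene body and flanks, called higher. Lower calls were Epha6, with 13.9 and 5.3 kb, and Efna3, with 3.58 and 0.884 kb.

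Ephb4, the receptor of Efnb2, had other calls than the remaining EphB genes. Its H3K27ac was not called (14 kb in WT, 10.6 kb in IKDN), but RNAPII was 0 and 9.18 kb, H3K36me3 0 and 22.5 kb and MED1 0 and 3.57 kb, and its H3K27me3 of 12 kb in WT was at 0 kb in IKDN. The other EphB receptors moved the opposite way on that mark. H3K27me3 was 6.19 and 18.8 kb at Ephb1, 10.1 and 26.1 kb at Ephb2, 14.3 and 23.2 kb at Ephb3, and 11.1 and 24 kb at Ephb6, all called higher in IKDN. Ephb1, Ephb2 and Ephb3 had no H3K27ac peak in either genotype.

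Among the ephrin-A ligands H3K27me3 was called lower at 4 of the 5 (Efna1, Efna3, Efna4 and Efna5), where 20% of all gene names were, the opposite of the call at those 4 EphB receptors. RNAPII was called higher at 4 of the 5 (Efna1, Efna2, Efna4 and Efna5), against 17.4% of all gene names. It was not called at the 4 EphB receptors. Efna1, Efna3 and Efna4 lie close together on chromosome 3 (89271730 to 89338028), so their calls need not be independent. Efna1 had 1.76 and 6.03 kb of RNAPII with 1.79 and 0 kb of H3K27me3, while Efna5 had 0 and 12.3 kb of RNAPII with 19.6 and 8.81 kb of H3K27me3. Epha2, an Eph receptor of epithelial cells and a partner of Efna1, kept similar H3K27ac (10.4 and 14.3 kb, not called) with RNAPII called lower, at 33.1 and 17.1 kb.

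**Figure D2:**
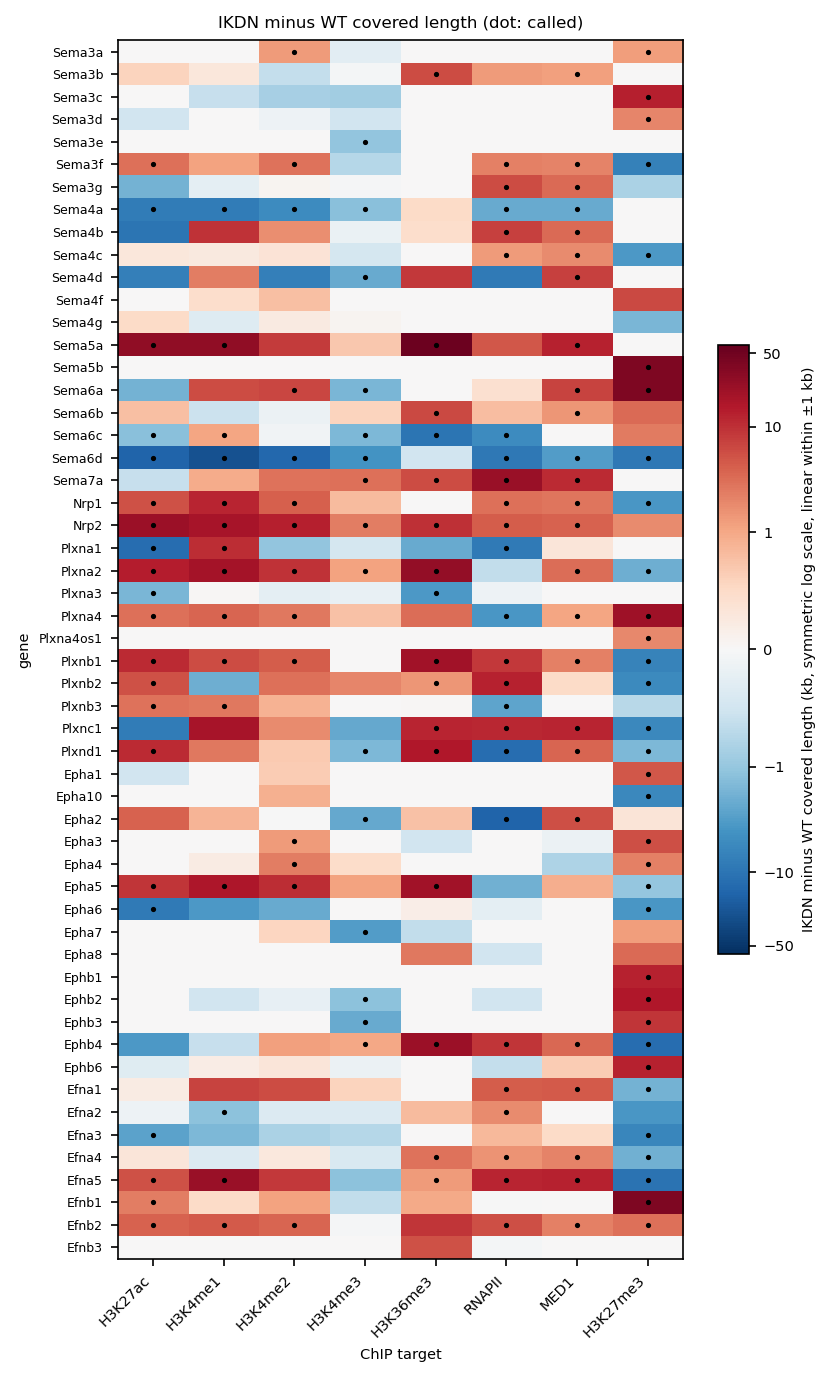
Difference in covered length (IKDN minus WT, in kb, symmetric log colour scale that is linear within 1 kb of 0) for the 54 genes (rows, by role) and 8 ChIP targets (columns); red is longer in IKDN, blue longer in WT, and a dot marks a called gene. The Nrp1, Nrp2, Plxna2, Plxnb1 and Sema5a rows are red across most columns, the Sema6d and Sema4a rows blue.

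Over the targets other than H3K27ac the members' counts were as follows, with the background beside each. H3K4me1 was called higher at 12 and lower at 3 members (15.5% and 14.4% of all gene names, 21.6% and 20% of those with a peak), and H3K4me2 higher at 12 and lower at 2 (10.7% and 9.18% of all gene names, 15.1% and 12.9% with a peak). H3K4me3 was called higher at 4 and lower at 11 (3.11% and 6.57%, or 5.14% and 10.9% with a peak), and H3K36me3 higher at 14 and lower at 2 (16.5% and 5.47%, or 30.4% and 10.1% with a peak). RNAPII was called higher at 16 and lower at 8 (17.4% and 15.9%, or 27.2% and 24.8% with a peak), and MED1 higher at 23 and lower at 2 (24.2% and 1.64%, or 43.1% and 2.93% with a peak). The members' share of higher calls lay above the background for each of these targets, and their share of lower calls below it for H3K4me1 and H3K4me2 and close to it for H3K36me3 and RNAPII. For H3K4me3 the members' share of lower calls, 20.4%, was above the background, and for MED1 it was 3.7%, from 2 genes. Only genes with a peak can be called, and 32 (H3K36me3) to 47 (H3K4me2) of the 54 members had one. Among those with a peak the members' share of higher calls was also above the background for each of these targets, for example 43.8% for H3K36me3, 40% for RNAPII and 69.7% for MED1.

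The enhancer marks followed the genes already named. The largest H3K4me1 gains after Sema5a were at Efna5, with 19.3 kb in WT cells and 43.3 kb in IKDN cells, Plxna2 and Nrp2, and besides Sema6d and Sema4a the lower calls held Efna2, with 2.2 and 1 kb. H3K4me2 gained most at Nrp2, Epha5 (7.3 and 17.9 kb), Plxna2 and Sema6a (11.9 and 18.4 kb), and was called lower at Sema6d and Sema4a (9.37 and 4.3 kb) alone. The largest MED1 gains were at Sema5a, Efna5 (0 and 13 kb), Plxnc1 and Sema7a, and the only lower calls were Sema6d and Sema4a. Sema6d and Sema4a were thus the members called lower for H3K27ac, H3K4me1, H3K4me2, H3K4me3, RNAPII and MED1 alike.

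Several of these counts go with properties of the lists. The IKDN MED1 list held 24219 peaks against 12070 in WT, and MED1 over all genes was 2.88 times longer in IKDN, while the members gave 5.82 times. The IKDN H3K4me3 library carries the antibody label of the H3K4me1 libraries, not that of the WT H3K4me3 library, and had the lowest inferred depth, 10.7 M tags against 29.6 M in WT. Its peaks lay within 2.5 kb of a start site in 64.4% of cases, against 62% for WT H3K4me3 and 32.6% for IKDN H3K4me1, so its peaks were placed like those of H3K4me3. The part of antibody and depth in the 11 lower H3K4me3 calls was not tested. Those calls include Epha7 (3.73 kb in WT, 0.5 kb in IKDN), Ephb3 (2.23 and 0 kb) and Epha2 (5.93 and 3.6 kb, not called over the gene body).

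H3K36me3 had the largest change in total length beside MED1. The members' sum was 193 kb in WT cells and 415 kb in IKDN cells, which gives a ratio of 2.15, where all genes gave 1.27. Sema5a, Plxna2, Ephb4 and Epha5 (0 and 21.2 kb) had the largest gains. Sema6c, with 10.2 and 0 kb, and Plxna3, with 3.55 and 0 kb, were the only members called lower, and the call at Sema6c was lost over the gene body.

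H3K27me3 was called higher at 16 members and lower at 17 (17.8% and 20% of all gene names, 29.6% and 33.3% of those with a peak). The largest gains were at Efnb1, with 20.4 kb in WT cells and 59.8 kb in IKDN cells, at Sema5b, with 12.2 and 50.4 kb, at Sema6a, with 42.4 and 80.1 kb, and at Plxna4. The largest losses were at Ephb4, Efna5 and Sema6d. By name Efnb2 was called higher (2.4 and 5.44 kb) and Epha10 lower (5.55 and 0 kb), but over the gene body Efnb2 was lower (2.4 and 0 kb) and Epha10 higher (13.5 and 29.3 kb).

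H3K27ac and H3K27me3 were next read together. Of the 14 members with higher H3K27ac, 8 had lower H3K27me3: Efna5, Epha5, Nrp1, Plxna2, Plxnb1, Plxnb2, Plxnd1 and Sema3f. Among all genes with higher H3K27ac, 32.7% had this opposite call. At 3 members, Efnb1, Efnb2 and Plxna4, both marks were called higher (16.1% of all such genes), but none of the 3 had both called higher over the gene body. There H3K27ac was not called at Efnb1 and Plxna4, and H3K27me3 was lower at Efnb2. Of the 7 members with lower H3K27ac none had higher H3K27me3 (21.7% of all such genes), and 3 of them, Efna3, Epha6 and Sema6d, had less of both (17.1%). Over the gene body 7 members were again lower in H3K27ac. Of those Plxna3 had higher H3K27me3, Efna3 and Sema6d had lower H3K27me3, and Epha6 was not called (21.1 and 15.8 kb). Of the 14 members with higher H3K27ac over the gene body, 9 had lower and none had higher H3K27me3. The joint counts over the gene body were not made for all genes, so these have no background.

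The other marks were set beside the H3K27ac calls in the same way. Of the 14 members with higher H3K27ac, H3K4me1 was called higher at 10 (57% of all genes with higher H3K27ac), MED1 at 10 (52.9%), H3K36me3 at 8 (34% of such genes) and RNAPII at 7 (42.2%). RNAPII was called lower at 3 of them, Plxna4, Plxnb3 and Plxnd1 (13.5%), but over the gene body none of these was lower and Plxnd1 was higher. With both calls taken over the gene body, H3K4me1, H3K36me3 and MED1 were each higher at 10 of 14 and RNAPII at 6. RNAPII was lower there at Epha1 alone. For all genes these gene-body counts were not made, so they have no background. Of the 7 with lower H3K27ac, RNAPII was lower at 4 (39.4%) and H3K4me1 at 2 (50.6%). These marks were profiled in separate libraries, but each genotype was 1 set of cultures.

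At the promoters, within 2.5 kb of a start site of the gene, 6 members had H3K27ac in IKDN only: Efnb1, Nrp1, Nrp2, Plxna2, Plxnb3 and Sema4g (4.8% of all gene names, 9.75% of those with a promoter peak in either list). At Sema6c and Sema6d it was present in WT only (4.18% and 8.49%), at 25 members in both and at 21 in neither. That is 18.2% and 6.06% of the 33 members with a promoter peak. Promoter H3K4me3 was present in both genotypes at 5 of these 6, and Plxnb3 had none in either. Promoter H3K27me3 was present in WT only at 10 members (9.85% of all gene names, 26.8% of those with a promoter peak), among them Nrp1, Plxna2, Plxnb1, Plxnb2, Epha5 and Ephb4, in IKDN only at Sema3a and Sema3d (6.2% and 16.9%), and in both at 29. Of the 41 members with such a peak the 10 are 24.4%, close to the share over all genes. For Nrp1 the naming matters again: a WT H3K27ac peak 0.4 kb downstream of the Nrp1 gene start is listed under Mir1903 and is not counted in these figures.

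Away from promoters, H3K27ac peaks of both genotypes were merged into distal regions (no start site within 2.5 kb) and classed by genotype. The members had 157 such regions: 38 were WT-only, 49 shared and 70 IKDN-only, or 24.2%, 31.2% and 44.6%. Over all genes the shares were 27.9%, 31.1% and 41%, so the split at the members was close to that of all genes. The 70 IKDN-only regions belonged to 19 members, with 16 at Sema5a, 12 at Plxna2, 6 at Epha5 and 4 each at Nrp2, Plxna1, Plxnb1 and Plxnd1. The 38 WT-only regions belonged to 16 members, with 6 at Plxnc1, 5 at Sema6d, 5 at Plxna1, and 4 each at Sema4a and Sema4b. In WT, H3K4me1 lay at 11 of the 70 IKDN-only regions, 15.7% against 23% over all genes, and at none of the 12 at Plxna2 or the 4 at Nrp2.

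The regions at Nrp2, Plxna2 and Sema6d show what these counts consist of. The strongest new region of Nrp2 lay at -151 kb from its start, was 10225 bp wide, had a score of 255, and held IKDN peaks of LHX2, LMO2, TEAD1, EBF1, PAX5, IRF4 and MED1. A WT TEAD1 peak lay in it too. This region is given to Nrp2 as the nearest start site. Within the gene body and 10 kb flanks H3K27ac at Nrp2 was 0 kb in WT cells and 15.6 kb in IKDN cells. Plxna2 had new regions at -137 kb (2308 bp), which held LHX2, LMO2 and TEAD1, and at 58.9 kb (3033 bp), which held LMO2 and TEAD1 in IKDN and Ikaros in WT. The narrowest of its 12 regions, 5 of 500 bp each, held no peak of LHX2, LMO2 or TEAD1. The 5 WT-only regions of Sema6d lay 84.8 to 118 kb past its nearest listed start site and beyond the end of the gene, which is 578 kb long; within the gene body and 10 kb flanks its H3K27ac was 1.63 kb in WT cells and 0 kb in IKDN cells. Ikaros peaks lay in 3 of the 5.

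Factor binding at these regions was compared next. Ikaros, profiled in WT only, had a peak in 15 of 38 WT-only regions (39.5%, exact 95% binomial interval 24 to 56.6%), in 41 of 49 shared regions (83.7%, 70.3 to 92.7%) and in 5 of 70 IKDN-only regions (7.14%, 2.36 to 15.9%). Over all genes the shares were 31.4%, 68.4% and 11.1%. With the top-scored 50% of the Ikaros list the WT-only share of the members was 21.1%. Ikaros at the members was thus most frequent at the acetylated regions that both genotypes share, and rare where acetylation was found in IKDN only. The same order held over all genes. The members' shared regions were also wider, with a median of 2616 bp against 671.5 bp (WT-only) and 652.5 bp (IKDN-only). A wider region has more room for a peak of any factor, and the part of width was not tested. The intervals cover counting error only, and regions of the same gene are not independent.

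LHX2 and LMO2, a LIM homeodomain factor and a LIM-only cofactor profiled in IKDN only, had peaks in 21.4% (12.5 to 32.9%) and 14.3% (7.07 to 24.7%) of the IKDN-only regions, and in 7.89% and 5.26% of the WT-only regions. Over all genes LHX2 lay in 18.3% of IKDN-only and 9% of WT-only regions and LMO2 in 13.5% and 6.07%, close to the members' shares. TEAD1, through which the Hippo pathway coactivators YAP and TAZ reach DNA, had IKDN peaks in 24 of 70 IKDN-only regions (34.3%, 23.3 to 46.6%; 26.7% over all genes) and in 10.5% of WT-only regions (11.9% over all genes). In WT cells TEAD1 peaks lay in 18.4% of the WT-only and 8.57% of the IKDN-only regions (9.75% and 6.28% over all genes), so TEAD1 in each genotype was more frequent at the regions acetylated in that genotype. With the top-scored 50% of the WT TEAD1 list, its WT-only share came to 2.63%, so that in WT this rests on the weaker peaks. All 3 of LHX2, LMO2 and TEAD1 were found together in 5 IKDN-only regions (Nrp2, Plxna2, Sema6a, Sema4b and Efnb2), in 15 shared regions and in no WT-only region. At least 1 of them lay in 27 of 70 IKDN-only, 38 of 49 shared and 7 of 38 WT-only regions. These joint counts were not made over all genes, so whether they differ at the members was not tested.

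EBF1, a factor that specifies B cells, had WT peaks in 31.6% (17.5 to 48.7%) of the members' WT-only regions, where all genes gave 12.5%, and in 7.14% of the IKDN-only regions (7.6%). In IKDN its peaks lay in 18.4% and 21.4% of these regions (8.83% and 18.2% over all genes). EBF1 was thus found at more of the new regions in the cells that had them, at the members as over all genes. The WT-only share came to 15.8% when only the top-scored 50% of the EBF1 list was used.

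**Figure D3:**
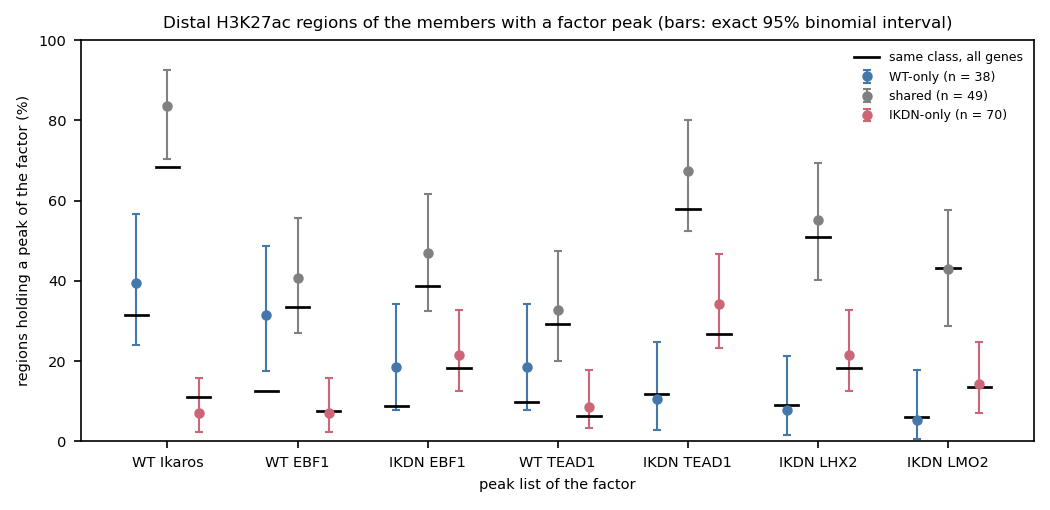
Share of the members' distal H3K27ac regions that hold a peak of a factor (y axis, %), by factor list (x axis) and by region class (blue WT-only, grey shared, red IKDN-only); bars are exact 95% binomial intervals for counting error, and black ticks give the same share over all genes. WT Ikaros is highest in shared and lowest in IKDN-only regions, and IKDN TEAD1, LHX2 and LMO2 are higher in IKDN-only than in WT-only regions.

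The rule for naming single peaks was applied on all chromosomes but 18. The IKDN-only region of Sema6a there, which held LHX2, LMO2 and TEAD1, was thus left out. On the other chromosomes the highest-scored LHX2 peak in an IKDN-only region lay in Sema5a at chr15:32545579-32545747 (mm10, intron 6 of 22). Its score was 91, rank 227 of 26634 LHX2 peaks. The highest LMO2 peak lay upstream of Nrp1 at chr8:128352905-128353145 (intergenic, -6.05 kb, score 184.4, rank 97). It overlapped its IKDN-only region, which ends at base 128352966, only in part. The highest TEAD1 peak lay in Epha5 at chr5:84263851-84264127 (intron 3 of 15, score 154.5, rank 317). Each was among the stronger peaks of its own list. For Ikaros, the highest peak in a WT-only region lay near Sema6d at chr2:124772044-124772220 (intergenic, score 32.5, rank 1135) and the highest in an IKDN-only region in the last exon of Plxnb1 at chr9:109118263-109118439 (score 25.8, rank 1960). Scores are the authors' own and order peaks within a list only.

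Counted over all peaks named for the members, most factor lists were longer in IKDN. IRF4 had 60 peaks in WT and 148 in IKDN, a ratio of 2.47 where all genes gave 1.65, with more in IKDN at 34 members and more in WT at 1. ETS1 had 86 and 163 (1.90, all genes 1.45), EBF1 130 and 180 (1.38, all genes 1.3), and PAX5 366 and 466 (1.27, all genes 1.16). TEAD1 had 185 and 230, a ratio of 1.24, below the 1.42 of all genes. E2A could be compared at 19 members only, as its WT list lacks several chromosomes (44 and 37 peaks, 0.841, all genes 0.562), and Aiolos, the Ikaros relative, had 17 and 13. The longer lists of all genes move with these counts, and how much of the members' excess in IRF4 and ETS1 comes from that was not tested.

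The difference in IRF4 was spread over most members with a peak, and the counts at single genes varied. Nrp2 had no EBF1, IRF4, ETS1 or Ikaros peak in WT, and in IKDN it had 12 EBF1, 6 IRF4 and 8 ETS1 peaks, 8 LHX2 peaks and 19 PAX5 peaks, the last against 4 in WT. TEAD1 was already there in WT, with 12 peaks against 15. Sema6d was opposite: it had 15 Ikaros peaks in WT and no LHX2 or LMO2 peak in IKDN, and its TEAD1 peaks went from 13 to 2, EBF1 from 8 to 2, IRF4 from 5 to 1 and PAX5 from 27 to 14. The most Ikaros peaks were at Plxnc1 (21), Sema4d (16) and Plxna1 (15, as many as Sema6d), the most LHX2 peaks at Efna5 (21), Plxnc1 (16) and Sema5a (11), and the most LMO2 peaks at Sema4d (9), Sema7a (9) and Efna5 (8). The lists present in both genotypes gave the most peaks to a few genes: EBF1 in IKDN to Efna5 (17), Plxnc1 (14) and Plxna1 (13), IRF4 in IKDN to Plxnc1 (16), Efna5 (11) and Epha5 (10), and PAX5 in IKDN to Efnb2 (45), Efna5 (43) and Epha5 (40). These peaks are named by the nearest start site and need not lie in the gene.

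Read by H3K27ac call, 12 of the 14 members called higher had an LHX2 peak in IKDN (69 peaks) and 9 an Ikaros peak in WT (36 peaks). Of the 7 called lower, 2 had an LHX2 peak (6 peaks) and 6 an Ikaros peak (44 peaks). Of the 33 not called, 17 had an LHX2 peak (64 peaks) and 18 an Ikaros peak (90 peaks). LHX2 was profiled in IKDN only and Ikaros in WT only, and the same counts over all genes were not made. Plxna1 and Epha6 were lower in H3K27ac with 3 LHX2 peaks each, and Plxnd1 and Plxnb3 were higher with none. A gene with more distal regions has more room for peaks of any factor, and the member sets were too few to test.

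**Figure D4:**
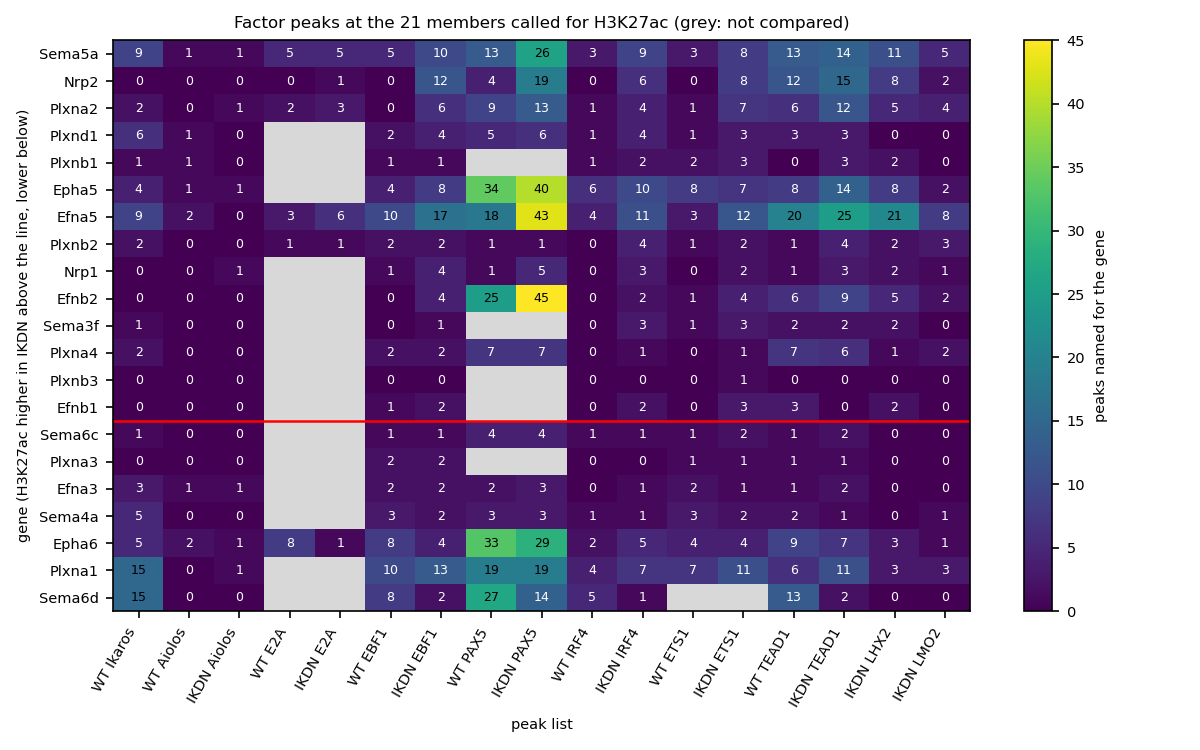
Number of peaks named for the gene (numbers and colour) at the 21 members called for H3K27ac (rows, by difference in covered length, higher in IKDN above the red line and lower below) in 17 factor lists (columns); grey cells lie on chromosomes incomplete in a list. Sema6d has 15 WT Ikaros peaks and no LHX2 or LMO2 peak, and Nrp2 has no WT Ikaros peak and 8 LHX2 peaks.

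The antibody labels limit 3 of these comparisons. The IKDN E2A library and both PAX5 libraries carry the antibody label of the IRF4 libraries, and the IKDN ETS1 and LHX2 libraries carry that of WT E2A. Of the 5000 top-scored IKDN ETS1 peaks 83.6% overlapped a WT ETS1 peak and 38.6% an IKDN E2A peak, and of the IKDN PAX5 peaks 92.6% overlapped WT PAX5 and 41.4% IKDN IRF4. Of the top IKDN E2A peaks 66.7% overlapped WT E2A, 60.9% IKDN IRF4, 70.1% IKDN PAX5 and 76.4% IKDN LMO2. The top LHX2 peaks overlapped IKDN LMO2 in 53.1%, IKDN ETS1 in 44.8% and IKDN E2A in 39% of cases. The IKDN ETS1 and LHX2 lists were not compared with WT E2A, whose label they carry. The lists compared also differ in length, with 22482 WT ETS1 and 15385 IKDN E2A peaks, and 82216 WT PAX5 and 29561 IKDN IRF4 peaks. These overlaps thus do not settle any of the labels. Results on E2A rest on few genes and an uncertain label.

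Partners and transducers of these receptors were counted from a list of 40 genes, all with a peak. For H3K27ac 16 of them were called higher and 3 lower (14.1% and 10.8% of all gene names, 21.9% and 16.8% of those with an H3K27ac peak). H3K36me3 calls were higher for 14 and lower for 1 of the list (16.5% and 5.47% of all gene names), RNAPII higher at 13 and lower at 10 (17.4% and 15.9%), and H3K27me3 higher at 14 and lower at 9 (17.8% and 20%). Mical3, an oxidase that takes plexin signals to actin, had 1.9 kb of H3K27ac in WT and 19.9 kb in IKDN, and Dpysl2, the collapsin response mediator CRMP2, had 5.05 and 18.2 kb. Itgb1, the beta subunit shared by many integrins, had 8.2 and 16.7 kb, and Met, a co-receptor of class B plexins, 0 and 1.24 kb. Other marks did not all follow. H3K27me3 was called higher at Itgb1 (19.7 and 48.5 kb) and Met (2.37 and 19.5 kb), and RNAPII was not called at either. At Dpysl2 RNAPII was called lower (27.1 and 15.7 kb) and H3K36me3 was not called (61.4 and 60.3 kb). At Mical3 RNAPII (1.42 and 3.74 kb) and H3K36me3 (0 and 39.1 kb) were called higher. The 3 genes lower in H3K27ac were Kdr (17.7 and 10.8 kb), Vav2 (32.3 and 13.9 kb) and Pdlim1 (4.07 and 0.632 kb). Kdr is a vascular endothelial growth factor receptor that works with neuropilins, and Vav2 an exchange factor. At Vav2, RNAPII (6.74 and 28.9 kb) and H3K36me3 (12.3 and 19.1 kb) were called higher. RNAPII was called lower at Kdr (5.66 and 3.04 kb) and Pdlim1 (2.03 and 0 kb). MED1 was called higher at Vav2 (0 and 2.36 kb) and Kdr (0.774 and 5.96 kb) and not at Pdlim1.

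The cell label was checked against markers of B cells and of other cells the cultures could hold. Of 10 B-lineage genes 9 had H3K27ac in WT and 7 in IKDN, with 176 and 105 kb. Of 14 stromal fibroblast genes 10 had H3K27ac in WT and 7 in IKDN, 23 and 33.7 kb in sum, and their H3K4me3 was 30.7 kb in WT cells and 5.48 kb in IKDN cells. RNAPII lay at 9 of the 14 in WT and 6 in IKDN, with 60.6 and 32.8 kb. Col1a1, Pdgfrb and Prrx1 were among the genes with H3K27ac in both genotypes, while Lum, Dcn and Lepr were at 0 for H3K27ac, H3K4me3 and RNAPII in both. The 7 endothelial genes had 35.6 and 37 kb of H3K27ac and the 5 neural genes 6.57 and 6.33 kb. Semaphorins, neuropilins and ephrins are also used by stromal, endothelial and neural cells, and the part of such cells in the values above was not tested.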

How the data were processed

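ChIP-seq peak lists of 33 libraries from WT and IKDN stromal adherent pre-B cell progenitors were used, 1 library per genotype and target; 2 input libraries were not used here. The authors made the lists, and per the submitters' processing notes the tools named were bcl2fastq 1.8.3, BWA, STAR and HOMER, with builds mm10 and mm9. Per the file headers, each peak has coordinates, a deposited peak score, the distance to the nearest start site and that gene's name. The scale of the score is not stated. The score was used to rank peaks within a list, and its steps to infer the depth. The start sites that these distances give fell no more than 1000 bp from the named gene of GRCm38.p6 in 98.9% of cases, so positions are mm10.

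Members, gene lists and thresholds were chosen with earlier results of these data known. Covered length was the summed peak length per gene and list. Lists that stop on a chromosome (WT E2A, WT ETS1, IKDN PAX5) were compared on complete chromosomes only: E2A at 19, ETS1 at 53 and PAX5 at 46 members. Named were all members called for H3K27ac, the 4 largest gains and 3 largest losses of each other mark, all neuropilins and plexins, and the 3 members with most peaks of the factor lists; further single members were named after their values were seen. Distal regions were merged H3K27ac peaks with no start site within 2.5 kb; a factor was present with at least 1 bp of overlap. Shares carry exact Clopper-Pearson 95% intervals. Alternatives were stricter thresholds (2000 bp and 2 times), peak numbers (at least 2 more and 1.5 times), the top-scored 50%, equal peak numbers, peaks within 100 kb, the gene body with 10 kb flanks, peak centres, and 10 kb for distal regions. Scripts, checked on simulated lists, used Python 3.11.15, pandas 2.3.3, numpy 2.4.6 and scipy 1.17.1.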

Additional observations from a re-analysis of the deposited data

How the results depend on the processing

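Of the 96 counts of called members under other settings 78 stayed within 1.5 times of the reported count, and 38 of the 42 factor shares moved little. With at least 2000 bp and 2 times, H3K27ac was lower at 4 members, H3K4me2 higher at 6, H3K4me3 higher at 1 and lower at 3, RNAPII lower at 5, and H3K27me3 higher at 10 and lower at 8. By number of peaks, H3K27ac was lower at 3, H3K4me3 higher at 0 and lower at 3, H3K36me3 lower at 1, RNAPII lower at 5, and H3K27me3 higher at 10 and lower at 9. With the top-scored 50% of each list, H3K4me2 was lower at 4, H3K4me3 lower at 4 and MED1 lower at 1, and the WT-only shares were 21.1% for Ikaros, 0% for LMO2, 2.63% for WT TEAD1 and 15.8% for WT EBF1. Over the gene body and 10 kb flanks H3K4me1 was lower at 6 (14.1% of all gene names, 14.4% by name). For H3K27ac the background shrank along with the lower counts. By the main call 10.8% of all gene names were lower. That share was 5.95% with at least 2000 bp and 2 times and 5.02% by number of peaks. For the other member counts the background at the changed setting is not given here. Equal peak numbers, peaks within 100 kb, peak centres and a 10 kb distal limit moved none of these counts by more than 1.5 times and none of these shares past the interval of the reported value. By gene, 17 of the 21 H3K27ac calls were the same over the gene body and 4 (Efnb1, Plxna4, Plxnb2 and Sema3f) were not called. The cause was not tested. No paired analysis was possible because each group has 1 library, and no library can be left out for the same reason.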
